A study of Trametes cinnabarina with 16 samples.

Results

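Pycnoporus cinnabarinus, also named Trametes cinnabarina, is a white-rot basidiomycete, a fungus that breaks down wood. Cultures of strain PB94 on switchgrass (3 libraries) were compared with cultures on poplar (3 libraries), 6 of the 16 libraries of the series. These 6 were chosen by their labels: both groups had RNA depleted of ribosomal RNA with a yeast kit, so the comparison stays within one library preparation. RNA was taken from the whole organism after at least 5 days in semi-minimal medium, started from a cube of overgrown agar. The other 10 libraries (cellobiose, 3; glucose, 1; maltose, 3; no energy source, here called control, 3) came from poly-A RNA and are given as background levels. Nothing in the labels says that the replicates were separate cultures, so every p-value measures the spread between these libraries, which may be technical.

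White-rot fungi secrete oxidising enzymes that attack lignin, such as laccases and peroxidases, together with hydrolases and lytic oxidases that open cellulose and hemicellulose. Poplar is a hardwood and switchgrass is a grass. Their cell walls differ in the make-up of their lignin and in their hemicelluloses, of which grass walls hold mainly arabinoxylan bound to phenolic acids. Which genes a fungus uses on wood and on grass can therefore be asked by comparing cultures on each. None of the 27990 assembled genes could be given a name here. Compared as text, their identifiers, such as TR7964__c0_g1, matched 0 of the 10441 genes of the RefSeq annotation of strain BRFM137. Sequences were not compared, so that 0 says nothing about which genes are shared. The deposited tables pair no names with the identifiers. All genes below are therefore given by identifier, level and behaviour, and no enzyme family could be followed.

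Levels are TPM, a transcript abundance per length that sums to 1000000 in each library. Between groups they are given as scaled TPM, after division by a median-of-ratios factor, because a few genes took up much of some libraries. The factors were 1.53, 1.58 and 0.801 for the 3 switchgrass libraries and 0.868, 0.363 and 1.64 for the 3 poplar libraries. TPM does not carry the number of reads, and how deeply each library was sequenced is unknown. A gene at 0 is reported as listed at 0. The submitters deposited the same values in a second table whose column names disagree for 16 of 16 columns. Under those names the libraries called switchgrass here would be cellobiose and those called poplar would be control. All group names and directions here follow the first table's names, a choice the files do not settle.

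The most abundant genes took very unequal shares of single libraries. The 10 most abundant genes held 25.6%, 27.4% and 50.8% of TPM in the switchgrass libraries, against 35.1%, 75.3% and 30.7% in the poplar libraries. The third switchgrass and the second poplar library therefore stood apart from their groups. The mean was 34.6% ± 14.05 in switchgrass and 47.0% ± 24.6 in poplar (SD, n = 3 each), and the groups overlapped (difference -12.4 percentage points; exact two-sided permutation test, p = 0.5). With 3 libraries against 3, the smallest p that this exact test can give is 0.1. Without the second poplar library the difference was 1.73 percentage points, the opposite direction.

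Among the 6 lists of 10 genes there were 21 genes, of which 4 were in all 6 lists, 5 in those of all 3 switchgrass libraries and 5 in those of all 3 poplar libraries. A pair of these 4, TR18642__c0_g1 and TR4031__c0_g1, was looked at after its values were seen, because it led the libraries that stood apart. TR18642__c0_g1 held 3.35%, 3.39% and 27.3% of TPM in the switchgrass libraries, against 15.5%, 24.6% and 12.1% in the poplar libraries. TR4031__c0_g1 held 3.45%, 3.98% and 6.47% in switchgrass, against 2.19%, 26.1% and 5.36% in poplar. For both genes the groups overlapped. On the scale of scaled TPM neither was called different (limma, adjusted p = 0.984 for TR18642__c0_g1 and 0.987 for TR4031__c0_g1). In the 10 poly-A libraries the pair together held between 0.0799% and 0.473% of TPM, so its high level was shared by both plant groups, which also differ from those libraries in preparation. Substrate and preparation cannot be told apart there. TR18642__c0_g1 also varied in form. Its first assembled transcript was at 55828 TPM in the first poplar library and at 0, 0 and 5.60 TPM in the switchgrass libraries and 2.77 and 0 TPM in the other poplar libraries, while its second transcript was high in all 6.

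**Figure D1:**
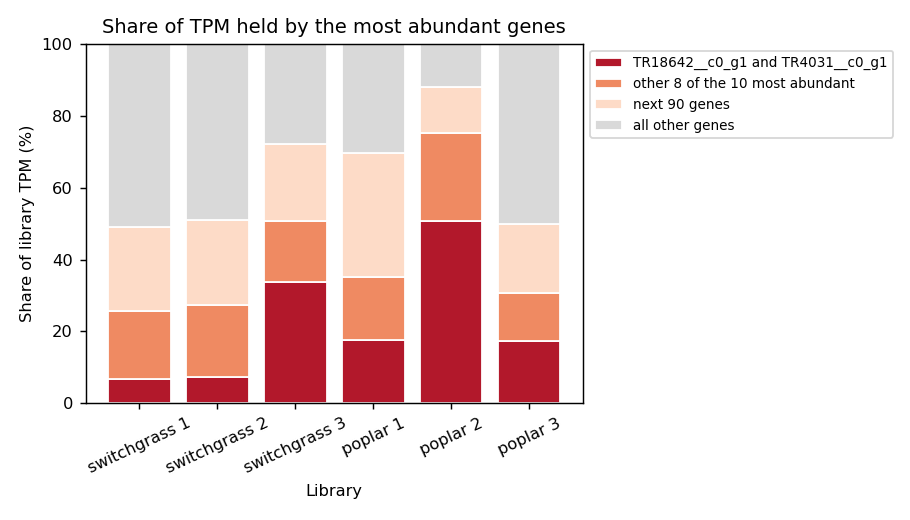
Share of each library's TPM (vertical axis, %) in the 3 switchgrass and 3 poplar libraries held by TR18642__c0_g1 with TR4031__c0_g1, by the rest of the 10 most abundant genes, by the next 90 genes and by all others. The pair held 33.7% in the third switchgrass library and 50.6% in the second poplar library, and 6.80% to 17.7% in the other 4.

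Switchgrass and poplar libraries resembled each other about as much as libraries of one substrate did. Over the 16860 genes with at least 1 scaled TPM in at least 3 of the 6 libraries, the Pearson correlation of log2(scaled TPM + 1) was 0.759 to 0.841 in the 9 pairs of a switchgrass with a poplar library. It was 0.738 to 0.810 in the 3 pairs within switchgrass and 0.778 to 0.919 in the 3 pairs within poplar. These correlations are across genes, which are not independent replicates, and describe the libraries. The first and second poplar libraries were the most alike (0.919). The third poplar library correlated more with all but 1 of the switchgrass libraries (0.841, 0.765 and 0.818) than with the first or second poplar library (0.780 and 0.778). The median absolute difference between libraries, on the log2 scale, was 0.544 to 0.653 across substrates, 0.553 to 0.727 within switchgrass and 0.323 to 0.620 within poplar.

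**Figure D2:**
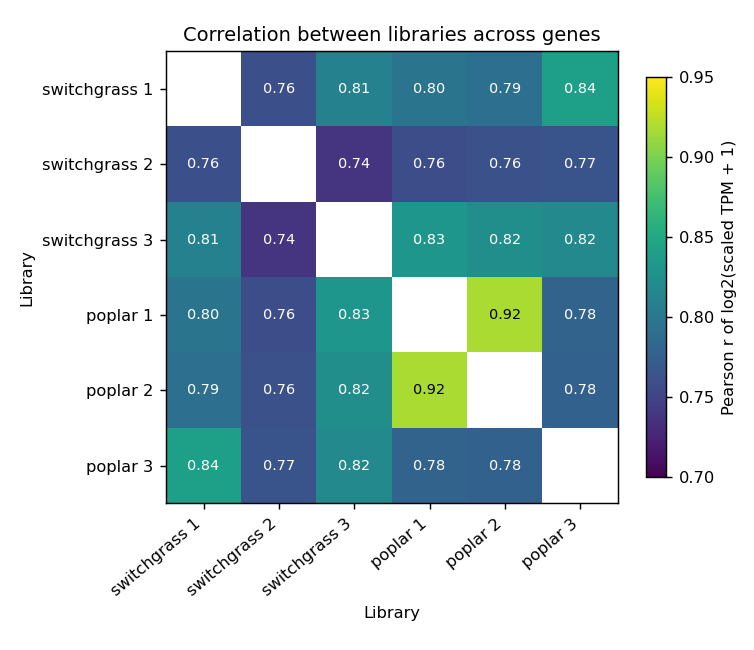
Pearson correlation across 16860 genes between the 6 libraries, on log2(scaled TPM + 1), with the libraries on both axes in the same order. The first and second poplar libraries form the one bright pair (0.919). Pairs of a switchgrass with a poplar library (0.759 to 0.841) lie within the full range of pairs within a substrate (0.738 to 0.919).

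Genes were tested one by one with limma on log2(scaled TPM + 1), fitted to the 6 libraries, and called at a Benjamini-Hochberg adjusted p under 0.05. One gene of 16860 was called (1 higher in switchgrass, 0 lower; 0.00593% of the genes tested). It was TR7964__c0_g1. Its 3 switchgrass libraries were at 70.8, 62.7 and 83.5 scaled TPM, against 1.53, 0.386 and 0.426 scaled TPM in the 3 poplar libraries. Every switchgrass library was thus far above every poplar library. The means were 72.3 ± 10.5 scaled TPM in switchgrass and 0.781 ± 0.650 in poplar (SD, n = 3 each), a 92.6-fold ratio. The log2 fold change was 5.41 ± 0.34 (SE, adjusted p = 0.0238); on the log2(scaled TPM + 1) scale the change of low genes is understated. Of its 2 transcripts, the second carried most of the gene, with 106.59, 96.81 and 63.59 TPM in switchgrass against 0.83, 0.14 and 0.55 TPM in poplar.

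In TPM as deposited, TR7964__c0_g1 was highest in switchgrass (91.4 ± 21.8, SD, n = 3). It was at 41.65 TPM in the glucose library, 32.6 ± 1.25 in cellobiose and 20.9 ± 6.90 in control (n = 3 each). In maltose it was at 17.75, 18.18 and 0.19 TPM, and in poplar at 0.723 ± 0.595 (n = 3). All 3 poplar libraries lay below the 10 poly-A libraries except the third maltose library, and all 3 switchgrass libraries lay above all 10. The ranges of control (14.36 to 28.11 TPM) and of the first and second maltose libraries overlapped. Leaving out any single library kept the log2 fold change between 5.20 and 5.72 but put the adjusted p between 0.0578 and 0.285. With all 6 libraries, limma with a pseudocount of 0.1 gave a log2 fold change of 6.59 (adjusted p = 0.115). Without the second poplar library and the third switchgrass library the log2 fold change was 5.35 (adjusted p = 0.9995, with 2 libraries a group).

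The other 3 genes chosen by the same rule (above the median level, no overlap between groups) were not called. TR17979__c0_g1 was at 142, 91.5 and 104 scaled TPM in switchgrass, against 20.5, 20.2 and 13.7 in poplar. Its log2 fold change was 2.56 ± 0.31 (SE, adjusted p = 0.250). In TPM as deposited it was at 8.08 ± 0.391 in cellobiose and 68.0 ± 9.23 in control (SD, n = 3 each). The poplar mean of 15.9 ± 7.76 TPM lay between those means. The poplar libraries (17.82, 7.32 and 22.47 TPM) overlapped the range of cellobiose (7.83 to 8.53 TPM). Glucose was at 17.23 TPM and maltose at 47.18, 40.41 and 1.51 TPM.

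TR13787__c0_g1 was at 5.36, 3.24 and 6.85 scaled TPM in switchgrass, against 38.0, 25.9 and 22.04 in poplar (log2 fold change -2.28 ± 0.36 SE, adjusted p = 0.592). In TPM as deposited, its switchgrass level of 6.27 ± 1.69 was near those of glucose (5.66), maltose (5.54 ± 0.323) and control (6.60 ± 0.187). Its poplar level was 26.2 ± 14.6 and its cellobiose level 14.7 ± 0.681. TR3101__c0_g1 was at 11.9, 6.94 and 7.93 scaled TPM in switchgrass, against 29.1, 30.5 and 39.7 in poplar (log2 fold change -1.80 ± 0.30 SE, adjusted p = 0.604). As deposited, its TPM values overlapped between the groups (18.21, 10.96 and 6.35 in switchgrass, against 25.27, 11.04 and 65.24 in poplar), so its separation depends on the scaling. In scaled TPM, for both genes the switchgrass libraries were the low group and the poplar libraries the high one, as the rule that chose them requires.

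**Figure D3:**
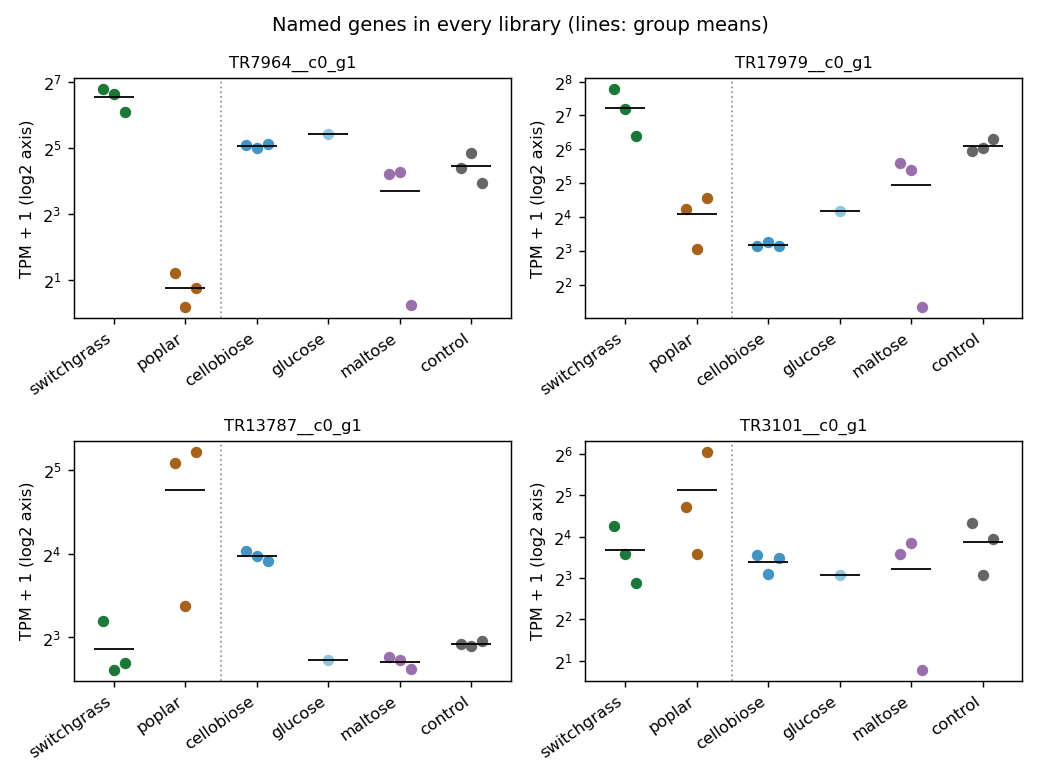
Level of the 4 named genes in all 16 libraries, as TPM + 1 on a log2 axis, with 1 point per library and a line at each group's mean; the dotted line parts the rRNA-depleted groups (left) from the poly-A groups. TR7964__c0_g1 is at 66.9 to 108 TPM in switchgrass and 0.14 to 1.33 TPM in poplar.

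The 20 genes with the smallest p-values held 8 with a positive and 12 with a negative fold change. All but the first missed the threshold, with adjusted p from 0.106 to 0.604. The log2 fold changes ran from 2.17 to 5.41 in the positive direction and from -1.61 to -3.43 in the negative one. Most were low genes: 7 of the 20 were above the median level of the genes tested, 6 were listed at 0 in all 3 switchgrass libraries and 3 in all 3 poplar libraries. All 20 were above 0 in at least 1 of the 10 poly-A libraries, as were 16746 of the 16860 genes tested. At an unadjusted p under 0.05 there were 875 genes, 5.19% of those tested, 362 higher and 513 lower in switchgrass. That share is close to the threshold itself. A gene that missed the threshold was not shown to be equal on both plants.

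**Figure D4:**
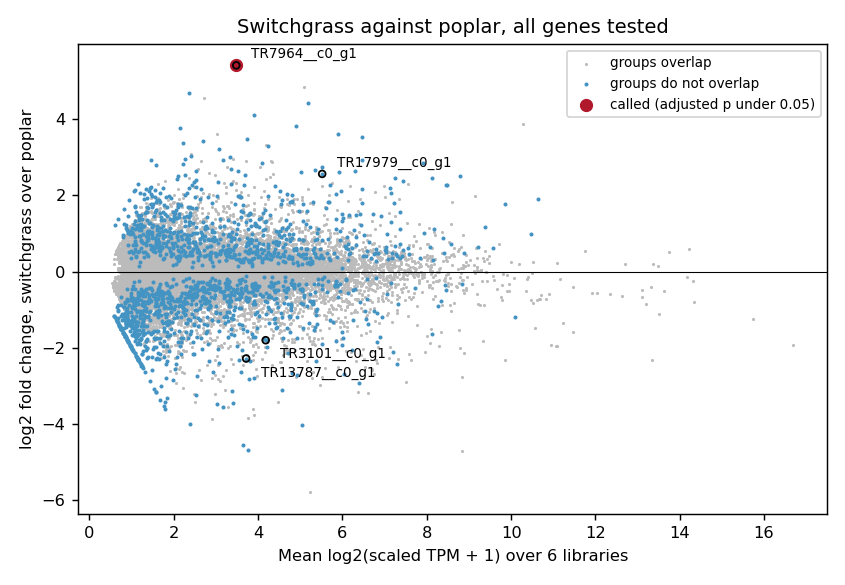
log2 fold change of switchgrass over poplar (vertical axis) against the mean log2(scaled TPM + 1) of the 6 libraries (horizontal axis) for 16860 genes, with the 4 named genes circled. TR7964__c0_g1, at 5.41, is the called gene; genes whose groups do not overlap (blue) lie on both sides of 0 at all but the highest levels.

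Counted without a test, 750 genes were higher in all 3 switchgrass libraries than in all 3 poplar libraries (4.45% of the genes tested), and 898 were lower in all 3 (5.33%), together 9.77%. In the exact permutation test of 3 libraries against 3, complete separation in either direction has p = 0.1. With this scaling, the 9.77% is thus close to the share expected for libraries that do not differ by group. Both the total and the balance turned on the scaling. TPM as deposited gave 619 higher and 167 lower of 16875 genes, and upper-quartile scaling 285 higher and 1731 lower of 17088. A gene could pass the filter on low values through 1 group alone, and such a gene had to differ, so these counts include genes the filter favours. Both lists were chosen for their direction in scaled TPM, so the sign of their fold changes was fixed and their levels only describe them. The levels and shares that follow are in TPM as deposited. The 750 genes had median levels of 14.5 TPM in switchgrass and 5.14 in poplar, and a median log2 fold change of 0.86. They held 6.86%, 7.32% and 2.90% of TPM in the switchgrass libraries, against 1.65%, 0.674% and 2.68% in the poplar libraries. The 898 genes had median levels of 3.02 TPM in switchgrass and 5.595 in poplar, and a median log2 fold change of -0.97. Over all genes tested the median log2 fold change was -0.04 and the median absolute value 0.35. A change of at least 1 on the log2 scale was seen in 2141 genes (12.7%), and in 753 of these (35.2%) the groups did not overlap.

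With this scaling, the share of genes without overlap was similar at all levels, while its balance differed. In the quartile of genes with the lowest mean (median 1.495 scaled TPM) 119 genes were higher and 296 lower in switchgrass without overlap, 9.85% of that quartile. In the quartile with the highest mean (median 34.8 scaled TPM) 243 were higher and 165 lower, 9.68%. The median SD between replicates, on the log2 scale, was 0.838, 0.656, 0.457 and 0.463 in switchgrass from the lowest to the highest quartile, and 0.608, 0.459, 0.372 and 0.392 in poplar. The 100 most abundant genes of the 6 libraries, chosen by their level here, held 7 genes that were higher and 1 that was lower without overlap, 8% against 9.77% of all genes tested. Their median log2 fold change was -0.43. Their median levels were 1490 TPM in switchgrass and 1433 in poplar, and 33.3 in cellobiose, 34.9 in glucose, 21.2 in maltose and 44.3 in control.

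Some genes were listed at 0 throughout one substrate. There were 11 genes with at least 1 TPM in all 3 switchgrass libraries and 0 in all 3 poplar libraries, and 59 genes at 0 in all 3 switchgrass libraries and at least 1 TPM in all 3 poplar libraries. The 11 genes had medians of 5.53, 2.72 and 2.88 TPM in the switchgrass libraries, with 47.3 TPM as the highest mean. The 59 genes had medians of 2.75, 1.64 and 2.22 TPM in the poplar libraries, with 11.1 TPM as the highest mean. All 11 and all but 1 of the 59 were above 0 in at least 1 poly-A library, and 9 of the 59 were above 0 in all 10. Of the 16860 genes tested, 16746 were above 0 in at least 1 poly-A library and 9827 in all 10. Genes at 0 were also unequally common over the whole assembly, at 42.2%, 29.4% and 34.5% of the 27990 genes in the switchgrass libraries, against 19.5%, 35.4% and 22.9% in the poplar libraries. The part of this in the 59 against 11 was not tested. At a minimum of 5 TPM the counts were 2 and 0, and with 1 library left out they ran from 24 to 57 and from 89 to 333.

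At 1 scaled TPM or more, 14911, 15850 and 16235 genes were detected in the switchgrass libraries, against 18075, 16062 and 16305 in the poplar libraries. The groups overlapped (15665 ± 681 in switchgrass and 16814 ± 1099 in poplar, SD, n = 3 each; difference -1149, exact two-sided permutation test, p = 0.2). With TPM as deposited the difference was 419 and at 5 scaled TPM 124, both in the opposite direction.

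A fit that took the spread of each gene from all 16 libraries gave more calls. In that fit 60 genes were higher in switchgrass (0.323% of 18575 tested) and 124 lower (0.668%), 0.991% in all. The median SD of a gene between replicates, on the log2 scale, was 0.654 in switchgrass and 0.492 in poplar, against 0.216 in cellobiose, 0.654 in maltose and 0.165 in control. The shared spread was thus drawn partly from groups whose libraries varied less than those compared. The scaling factors were also recomputed over 16 libraries, which changed the genes tested and the fold changes. For TR7964__c0_g1 the log2 fold change was 5.78, against 5.41 in the fit to 6 libraries. Why the calls grew was not tested. The calls grew further without the third maltose library, to 134 higher and 243 lower, which held all 60 and all 124. TR7964__c0_g1 was called (adjusted p = 0.00152), as were TR17979__c0_g1 (0.00684) and TR3101__c0_g1 (0.0253), while TR13787__c0_g1 was not (0.147; limma in each case).

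The 60 higher genes had medians of 14.9, 16.9 and 11.9 TPM in the switchgrass libraries, against 1.23, 0.305 and 1.475 TPM in the poplar libraries. In poplar 10 of them were listed at 0 in all 3 libraries. The median of the 124 lower genes was 0 in each of the 3 switchgrass libraries, against 2.18, 1.065 and 2.865 TPM in the poplar libraries, and 82 were listed at 0 in all 3 switchgrass libraries. The highest mean of any of the 124 was 42.8 TPM in switchgrass and 142 TPM in poplar. The 10 and the 82 genes passed the filter through the other group alone and so had to differ. Both lists were chosen for a difference between these groups, so their plant levels only describe the choice. Most genes of both lists were above 0 in at least 1 poly-A library, 54 of the 60 and 119 of the 124. Among the 16860 genes tested in the fit to 6 libraries, 16746 were. Genes of both lists were thus found outside the plant cultures less often than those genes, and why was not tested.

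**Figure D5:**
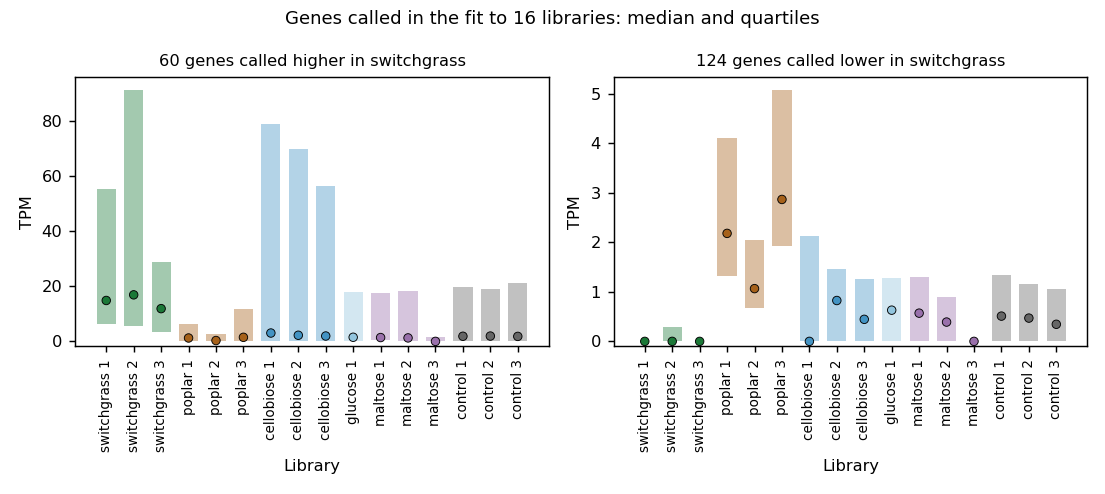
Median TPM (points) and quartiles (bars) of the 60 genes called higher and the 124 called lower in switchgrass in the fit to 16 libraries, by library. The median of the 60 genes is 11.9 to 16.9 TPM in the switchgrass libraries and 0.305 to 1.475 TPM in the poplar libraries. In cellobiose it is 1.95 to 3.035 TPM, against 1.81 to 1.93 TPM in control. Both lists were chosen for a difference between switchgrass and poplar, so that difference only describes the choice.

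Cellobiose, the disaccharide unit of cellulose, and control share a preparation with each other and no library with the fit to the 6 plant libraries. The genes that separated in that fit's libraries were therefore also looked at in cellobiose against control. Of the 750 genes higher on switchgrass, 169 were higher in all 3 cellobiose than in all 3 control libraries (22.5%, against 18.5% of all genes tested), and 145 were lower (19.3%, against 20.3%). With a mean difference of at least 1 on the log2(TPM + 1) scale as well, 71 were higher (9.47%, against 5.18%) and 31 lower (4.13%, against 5.69%). Of the 898 genes lower on switchgrass, 143 were higher in cellobiose (15.9%) and 190 lower (21.2%), and by at least 1 on that scale 29 were higher (3.23%) and 55 lower (6.12%). The median difference was 0.01 for the 750 genes and -0.02 for the 898, against 0 for all genes tested. The lists also differed in level, with a median in cellobiose of 18.5 TPM for the 750 genes and 6.95 for the 898, against 10.8 for all genes tested. On the log2(TPM + 1) scale, low genes reach a difference of 1 less easily. These are counts with no test, and the part of level in them was not tested.

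The shares of alternative transcripts were compared next, a measure that does not depend on the scaling of a library beyond the choice of genes. For 6560 transcripts of 2159 genes with at least 5 scaled TPM in all 6 libraries, the share of its gene that each transcript took was tested with limma. No transcript was called (0, 0% of those tested, smallest adjusted p 0.924), and 318 had an unadjusted p under 0.05 (4.85%, a share close to that threshold). On an arcsine square root scale 0 were called and 350 had an unadjusted p under 0.05. The mean absolute difference in share, on a scale from 0 to 1, was 0.0998 to 0.151 between a switchgrass and a poplar library and 0.0899 to 0.165 between libraries of one substrate. Shares of rarer genes rest on less: with genes at 1 scaled TPM or more, 2 of 13598 transcripts were called. A transcript that was not called was not shown to have equal shares.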

How the data were processed

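The authors made TPM values for 45286 assembled transcripts and deposited them in a pair of tables. Both hold TPM, since each column sums to 1000000 within 0.87, whatever the tables are called. The submitters' processing notes name RSEM, with no version; assembler, aligner and filters were not given in the sources used. Per the labels' protocols, libraries were stranded, from poly-A RNA for sugars and control and depleted of rRNA for the plants. The deposited tables give equal values different column names. The first table's names were used; under them the second table follows the sample records in 16 of 16 columns.

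Transcripts were summed to 27990 genes by dropping the isoform suffix. The 6 plant libraries were scaled by median of ratios over genes above 0 in all 6. Genes with at least 1 scaled TPM in at least 3 libraries were tested with limma 3.58.1 under R 4.3.3, with a mean-variance trend, a pseudocount of 1 and no covariate. Descriptions used Python 3.11.15 and pandas 2.3.3. The tests were tried on simulated libraries first. Named genes were the 2 with the largest called change in each direction among those above the median level whose groups do not overlap. Places left were filled by uncalled genes with the smallest p; the 2 abundant genes were added after their values were seen. The 9 gene lists chosen by product name could not be evaluated (0 of 9). The comparison, tests and lists were chosen with earlier results of these data known.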

Additional observations from a re-analysis of the deposited data

How the results depend on the processing

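The count of 1 called gene held at 1 with upper-quartile scaling, a pseudocount of 5, no filter, a filter of 5 scaled TPM, robust empirical Bayes, a test against a 1.5-fold change and a fit of transcripts. It became 25 (19 higher, 6 lower) with TPM as deposited, where the median log2 fold change of all genes was 0.43, against -0.04 with scaling and -0.26 with upper-quartile scaling. It became 184 with all 16 libraries in the fit, 377 without the third maltose library, 3 with weights per library, 0 with a pseudocount of 0.1 (804 genes at an unadjusted p under 0.05), and 0 without poplar 2 and switchgrass 3 together (425). Leaving out each library in turn gave 0 to 0 calls (408 to 1389 at an unadjusted p under 0.05). With the replicate number as a block it was 0 (771 at an unadjusted p under 0.05; limma gave TR7964__c0_g1 an adjusted p of 0.554). Deviations of same-numbered libraries correlated at -0.10, 0.03 and -0.10, so the numbers were not taken to pair the libraries. The call of TR7964__c0_g1 ended under 9 of 21 alternatives, and the cause was not tested. Under 1 more, the second table's column names, which compare other libraries, its fold change was negative and not called.

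Under the second table's column names 3308 genes were called (1720 higher, 1588 lower), 48 transcripts differed in share, 3788 and 3682 genes did not overlap, and the log2 fold change was -0.66 for TR7964__c0_g1 and 0.41 for TR3101__c0_g1, both reversed. It was 2.92 for TR17979__c0_g1 (limma, adjusted p = 0.00016) and -1.04 for TR13787__c0_g1 (0.00388), which had the same sign and were called. Those names put other libraries in the comparison. By the first table's names these are control (there called switchgrass) and cellobiose (there called poplar). The signs and counts are therefore no check on the comparison of switchgrass with poplar made here.

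The counts of 750 higher and 898 lower genes without overlap became 285 and 1731 with upper-quartile scaling, 463 and 417 at a filter of 5 scaled TPM, and 2216 and 2438 without poplar 2 and switchgrass 3 together; with TPM as deposited the lower count was 167. Leaving out each library gave 1064 to 1993 higher and 1134 to 2342 lower, where 2 against 3 libraries separate more easily. With genes at 1 scaled TPM or more, 2 transcripts differed in share; leaving out each library gave 0 to 0. For the share of the 10 most abundant genes, leaving out each library gave differences of -20.6 to 1.73 percentage points, with exact permutation p from 0.4 to 1. For genes detected it gave -1980 to -553, against 124 at 5 scaled TPM and 419 with TPM as deposited. TPM holds no depth, so what depth limits is unknown.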
